A study of Homo sapiens with 58 samples.

Results

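The comparison concerns RNA crosslinked to HuR that had been labelled by a cytoplasmic peroxidase, in cells given sodium arsenite against mock-treated cells. Its members are the 8 NES enriched libraries, 4 arsenite and 4 mock, of 58 libraries in the series. They were chosen by the NES, enriched and treatment words in their titles. All come from Huh-7.5, a human hepatocellular carcinoma line, carrying an APEX-NES construct. APEX is an ascorbate peroxidase that biotinylates nearby proteins, and NES is a nuclear export signal that directs it to the cytoplasm. The labels give neither the promoter of the construct nor whether the line is 1 clone. Arsenite was given at 0.5 mM for 45 min, and the mock cells received none. The cells of all 8 libraries received 0.5 mM biotin phenol for 30 min and 1 mM hydrogen peroxide for 1 min, so the mock cells were also exposed to an oxidant. Crosslinking was with UV at 254 nm, in doses of 400 and 200 mJ/cm2, and HuR was immunoprecipitated after partial RNase I digestion, with a streptavidin capture step added. The protocol names more than 1 RNase dilution without saying which library had which. Libraries 1 and 2 of each treatment carry the prefix JL0388 in their descriptions and libraries 3 and 4 the prefix JL1024, here called library sets. The 4 NES input libraries, 1 per treatment and set, come from the same line without the streptavidin step. The 6 cytoplasmic fraction libraries, 3 per treatment, come from cells labelled WT that were separated into fractions and had no APEX reaction. They form the set JL0380. The line, the labelling chemistry, the separation method and the library set therefore all differ between the NES and the fraction libraries, and their parts in any difference cannot be told apart. The labels name no separate cultures, so p-values measure the spread between these libraries.

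HuR, the product of ELAVL1, binds U-rich and AU-rich stretches in introns of nuclear pre-mRNA and in 3'UTRs of mRNA. It is mostly nuclear and shuttles to the cytoplasm, where it is known for stabilising mRNAs. Sodium arsenite causes oxidative stress and leads to phosphorylation of eIF2α. Translation initiation then falls, and mRNAs, initiation factors and RNA-binding proteins, HuR among them, gather in cytoplasmic stress granules. Introns are removed in the nucleus and cytoplasmic mRNA is mostly spliced, so the share of its tags in 3'UTRs as against introns describes which RNA it was bound to.

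The NES enriched libraries were shallow. They held 37831 to 114360 tags per mock library and 38255 to 564779 per arsenite library, of which 2981 to 5011 and 4837 to 21738 lay in the listed peaks. Depth moved with treatment in JL1024, where the arsenite libraries held 482900 and 564779 tags and the mock libraries 114360 and 105485. Between 343333 and 673322 tags lay in the peaks of each cytoplasmic fraction library. The library sets also differed in content. Copies of 5S ribosomal RNA, 17 gene names, took 0.20% to 0.24% of the tags in peaks of the JL0388 libraries, but 6.07% and 1.93% of the JL1024 mock and 7.55% and 4.40% of the JL1024 arsenite libraries. Arsenite libraries 1 and 2 were not told apart over 12 gene units with at least 20 tags (chi-square test, p = 0.394), although their annotation classes differed (p = 0.028), nor were mock libraries 1 and 2 (p = 0.671 over 6 units). The pairs of JL1024 differed beyond counting noise, with a chi-square of 3.45 (mock) and 5.78 (arsenite) per degree of freedom. The JL1024 pairs were compared over 33 and 108 units, so the tests of the JL0388 pairs, over fewer units, were weaker. They cannot decide whether a JL0388 pair holds less than 2 samples. As it may, values that count a pair once stand beside the main result. Of 20 hepatocyte marker genes, 11 had tags in the NES libraries. Of 10 markers of other cell types none had any, and 0 of 69515 tags allows a share of up to 0.0043%.

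HuR tags were further towards 3'UTRs and away from introns in the arsenite libraries, in both library sets. Of the tags in 3'UTR or intron peaks, the 3'UTR share was 52.3% and 53.4% in mock libraries 1 and 2, and 63.5% and 61.4% in arsenite libraries 1 and 2. In JL1024 it was 33.7% and 37.2% in mock libraries 3 and 4, and 45.8% and 44.9% in arsenite libraries 3 and 4. Every arsenite library lay above every mock library of its own set, while the JL1024 arsenite libraries lay below the JL0388 mock libraries. The 95% Wilson intervals of single libraries, which cover counting error only, were widest at 50.1% to 54.5% in JL0388 and at 31.2% to 36.2% in JL1024. Intervals of the arsenite and mock libraries did not meet within a set.

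The mean was 44.2% ± 10.2 (SD, n = 4) in mock and 53.9% ± 9.92 (SD, n = 4) in arsenite libraries, a difference of 9.74 percentage points. The difference was 9.58 points within JL0388 and 9.91 within JL1024. A two-sided exact permutation test over all 8 libraries gave p = 0.171, and one that permuted only within library sets gave p = 0.0556, the smallest its 36 arrangements allow. Neither is under 0.05. Counting arsenite libraries 1 and 2 as 1 sample gave a mean of 51.0% ± 9.89 (SD, n = 3) and a difference of 6.89 points (exact permutation p = 0.343), a value that weights the sets unequally between treatments. Counting the JL0388 mock pair once as well gave 9.80 points. Without the 20 gene units with the most tags the difference was 9.37 points. In 6216 genes with tags in both classes it was 10.9 points. After the libraries were thinned to one total it was 11.4 points. This measure was added after the class shares had been seen.

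**Figure D1:**
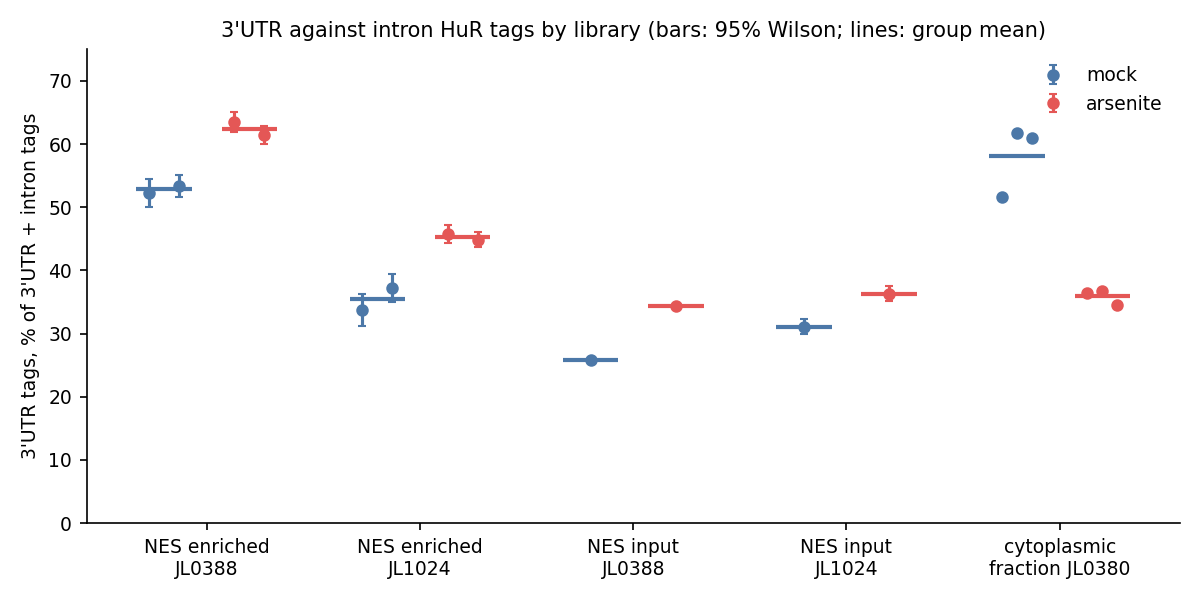
Each point is 1 library, its height the percentage of 3'UTR tags among 3'UTR and intron tags, with a 95% Wilson interval, and each line is a group mean. Arsenite libraries lie above mock libraries in both NES enriched sets and in the NES input, and below them in the cytoplasmic fraction, where the means were 58.1% and 35.9%.

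The unselected HuR of the same line differed in the same direction. In the NES input of JL0388 the 3'UTR share was 25.8% in the mock library (95% Wilson interval 25.5% to 26.1%) and 34.3% in the arsenite library (33.9% to 34.7%). In JL1024 it was 31.1% (29.9% to 32.3%) and 36.3% (35.1% to 37.5%). These differences, 8.49 and 5.23 points, rest on 1 library per treatment and set and have no replicate check. Whether the enriched libraries differed more than the input was not tested. The streptavidin step itself went with a higher 3'UTR share in each set and treatment: the enriched means were 52.9% (mock) and 62.4% (arsenite) in JL0388 and 35.4% and 45.3% in JL1024.

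The cytoplasmic fraction went the other way. Its 3'UTR share of 3'UTR and intron tags was 51.6%, 61.8% and 60.9% in mock libraries 1 to 3, and 36.5%, 36.8% and 34.5% in the arsenite libraries. Mock averaged 58.1% ± 5.65 and arsenite 35.9% ± 1.25 (SD over 3 libraries each), so arsenite minus mock was -22.1 points, without overlap. The exact permutation p was 0.10, the smallest that 3 against 3 libraries allow. Against the fraction's mock values of 51.6% to 61.8%, the NES mock libraries had 52.3% and 53.4% in JL0388 but 33.7% and 37.2% in JL1024, near the fraction's arsenite values of 34.5% to 36.8%.

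The difference between both systems was tested on the log2 odds of each annotation class's share of tags in peaks, with limma over the 10 classes and the library set as a covariate. This test was added to the plan, which held only exact permutation tests for class shares. The arsenite effect on the 3'UTR share was 0.31 ± 0.21 (SE) in NES and -1.17 ± 0.24 in the fraction, and the effects differed by 1.48 ± 0.31 (adjusted p = 0.0026). For introns they were -0.49 ± 0.19 and 0.83 ± 0.22, a difference of -1.32 ± 0.29 (adjusted p = 0.0026). The differences for snoRNA, 1.70 ± 0.52 (adjusted p = 0.020), and coding sequence, 0.92 ± 0.34 (adjusted p = 0.046), also passed. The NES effects come from the same fit, so the spread of the fraction libraries enters their errors and p-values. Among the NES effects no class passed, with an adjusted p of 0.264 for the 3'UTR and 0.126 for the intron. With JL0388 as the only NES set beside the fraction, the 3'UTR (0.48, adjusted p = 0.030) and intron (-0.39, adjusted p = 0.035) effects passed. Those of 5'UTR, coding sequence, downstream positions and ncRNA passed there too. With JL1024 as the only NES set, the TE class did (1.07, adjusted p = 0.030). These fits share their error with the fraction libraries, so they are not tests of 1 set by itself. Over both sets the intron effect passed without mock library 3 (-0.63, adjusted p = 0.035), and the 3'UTR effect without mock library 4 (0.54, adjusted p = 0.023). With NES set JL1024 alone, the 3'UTR and intron differences were 1.31 and -1.41 with adjusted p of 0.061 and 0.055, and those of coding sequence and snoRNA also missed the threshold. The coding-sequence call was lost without any 1 of 10 of the 14 libraries, and the snoRNA call without cytoplasmic mock library 2 or 3 or arsenite library 2.

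Of all tags in peaks, 3'UTR peaks held 34.7%, 36.7%, 8.94% and 16.1% in mock libraries 1 to 4 and 44.8%, 42.5%, 11.1% and 15.5% in arsenite libraries 1 to 4. The 3'UTR share thus separated the treatments in JL0388, by 7.92 points, and overlapped in JL1024, where the means differed by 0.76 points. Intron peaks held 31.7%, 32.0%, 17.6% and 27.2% of the mock tags and 25.7%, 26.7%, 13.1% and 19.0% of the arsenite tags. The intron share was lower with arsenite without overlap in JL0388, by -5.60 points, and overlapped in JL1024 with a mean difference of -6.33 points. The class that the table names TE held 1.91%, 1.77%, 4.21% and 7.55% of the mock tags and 1.63%, 1.62%, 11.1% and 11.3% of the arsenite tags, so it was higher with arsenite in JL1024 alone. Coding sequence held 0.32% to 0.94% of the mock tags and 0.32% to 1.39% of the arsenite tags. None of the 10 classes passed an exact permutation test over the 8 libraries. Adjusted p-values were 0.714 to 0.80, and the lowest unadjusted p was 0.114, for the class of positions within 10K downstream of genes, with 0.229 for introns. In the cytoplasmic fraction the 3'UTR share was 17.8 points lower and the intron share 13.2 points higher with arsenite.

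**Figure D2:**
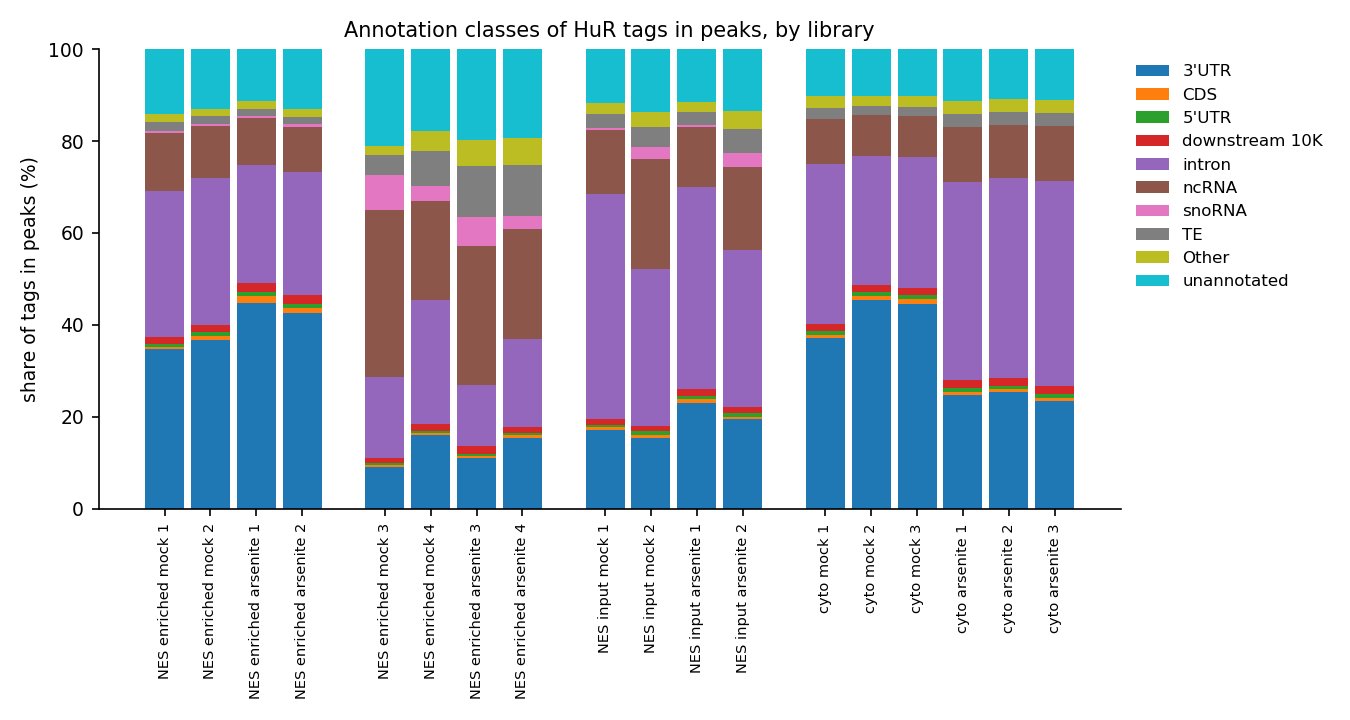
Each bar is 1 library and its segments are the shares of its tags in peaks by the table's annotation classes, in percent. The 3'UTR segment is larger with arsenite in NES enriched libraries 1 and 2 and smaller in the cytoplasmic fraction, and the JL1024 libraries (NES enriched 3 and 4) hold more ncRNA, TE and snoRNA tags.

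Peaks were summed per gene and annotation class, here called units, to ask which transcripts the shift involved. Of 1554 units non-zero in at least 4 of the 8 NES libraries, 0 passed at an adjusted p under 0.05 (0%) with limma, and 105 (6.76%) had an unadjusted p under 0.05. edgeR's quasi-likelihood test on the recovered tags also called 0, with 128 under 0.05 unadjusted. Within single library sets more units passed the filter. limma called 0 of 2369 units in JL0388, with 519 at an unadjusted p under 0.05. In JL1024 it called 544 of 2457 units, of which 543 were higher in the deeper arsenite libraries. The part of depth in these counts was not tested. The filter can also be met more easily through the deeper JL1024 arsenite libraries, and its part in the counts of higher units was not tested. The values that follow describe these libraries. The median log2 difference over all units was 0.24. It moved to 0.75 under edgeR's TMM scaling and to -0.08 under its library-total scaling, so class medians are read against it.

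Units in 3'UTRs stood higher than units in introns. Of 633 3'UTR units, 435 (68.7%) had a fitted log2 difference above 0, here called higher with arsenite, against 882 of all 1554 (56.8%), and their median log2 difference was 0.57. Of 664 intron units 310 (46.7%) were higher, with a median of -0.07. The gap was seen under each scaling, with 3'UTR and intron medians of 0.93 and 0.52 under edgeR's TMM, where the intron median turned positive, and 0.26 and -0.43 under library totals. Arsenite values lay above mock values in both library sets in 40 of the 3'UTR units (6.32%) and 18 of the intron units (2.71%), against 67 of all units (4.31%). They lay below in 7 of the 3'UTR (1.11%) and 21 of the intron units (3.16%), against 36 of all (2.32%). Of the 44 3'UTR units with an unadjusted p under 0.05, 42 were higher with arsenite, and of 41 such intron units 16 were.

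Units with at least 20 NES tags whose arsenite and mock libraries did not overlap in either set were named, which gave 7 higher and 8 lower. The direction of each is fixed by that choice, and none passed the test over all units (adjusted p of 0.563 to 0.829). Among the 7 higher, 4 were 3'UTRs of protein-coding genes, where 633 of all 1554 tested units were 3'UTRs. Of these 4, 2 encode splicing regulators, and SRRM1 among the 8 lower units encodes a splicing coactivator. In the list of splicing factors 2 of 15 3'UTR units were higher without overlap, against 6.32% of all 3'UTR units. Whether splicing genes stand out was not tested.

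HNRNPL, which encodes an hnRNP protein that regulates splicing, had 3'UTR values of 26.4, 59.6, 0 and 0 CPM (tags per 1000000 of the library total) in mock libraries 1 to 4, from 1, 3, 0 and 0 tags. The arsenite libraries had 78.4, 105, 24.8 and 46.0 CPM, from 3, 8, 12 and 26 tags. Every arsenite library had a tag while both JL1024 mock libraries had none, and the fitted log2 difference was 2.56 ± 0.77 (SE). One 20-nt peak on the minus strand of chromosome 19 (GRCh38.p14, chr19:38836584-38836604) held 52 of the 53 tags. Coordinates are as the authors' table gives them, without a statement of whether they count from 0 or 1. In the cytoplasmic fraction the same unit fell, by 1.55 on the log2 scale (limma adjusted p = 9.9e-05).

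HNRNPH1 encodes another hnRNP splicing factor. Its 3'UTR had 52.9, 19.9, 35.0 and 19.0 CPM in the mock libraries and 209, 78.7, 37.3 and 117 CPM in the arsenite libraries, from 9 mock and 98 arsenite tags. The JL1024 arsenite values of 37.3 and 117 CPM included 1 that was only just above the highest mock value of that set, 35.0 CPM. The log2 difference was 1.60 ± 0.66 (SE), and in the fraction it was -0.32 without passing (limma adjusted p = 0.158). The most used peak, chr5:179614327-179614347 on the minus strand, held 66 of 107 tags.

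CTNNB1 encodes β-catenin, the cell-adhesion protein and Wnt pathway effector, which is often active in liver tumours. Its 3'UTR had 52.9, 258, 26.2 and 56.9 CPM in mock libraries 1 to 4 and 392, 289, 120 and 65.5 CPM in the arsenite libraries. Mock library 2 stood far above the other mock libraries, close to arsenite library 2. The log2 difference was 1.32 ± 0.63 (SE), against -1.59 in the fraction (limma adjusted p = 1.4e-05). Of 156 tags, 87 lay in chr3:41240035-41240055 and 60 in chr3:41239937-41239957, both on the plus strand.

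CDC42 encodes a small GTPase that organises the actin cytoskeleton. Its 3'UTR had 26.4, 59.6, 0 and 19.0 CPM in mock and 183, 118, 53.8 and 33.6 CPM in arsenite libraries. All arsenite libraries were above all mock libraries of their set, by a log2 difference of 2.26 ± 0.77 (SE). In the fraction the unit fell by 1.41 on the log2 scale (limma adjusted p = 7.3e-05). The peak chr1:22091811-22091831 on the plus strand held 62 of its 67 tags.

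The other 3 were the CRACD intron and the ncRNA units of CROCC and RNU1-28P. CRACD encodes an inhibitor of actin capping protein. Its intron unit had 0 tags in all mock libraries and 2, 1, 17 and 6 tags in the arsenite libraries. Of its 26 tags, 22 lay in 1 peak with tags in arsenite libraries 3 and 4 alone, so no fold is given. RNU1-28P is a copy of the U1 snRNA and CROCC has near-identical copies, and their counts are uncertain because the authors' counting could split reads between copies.

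**Figure D3:**
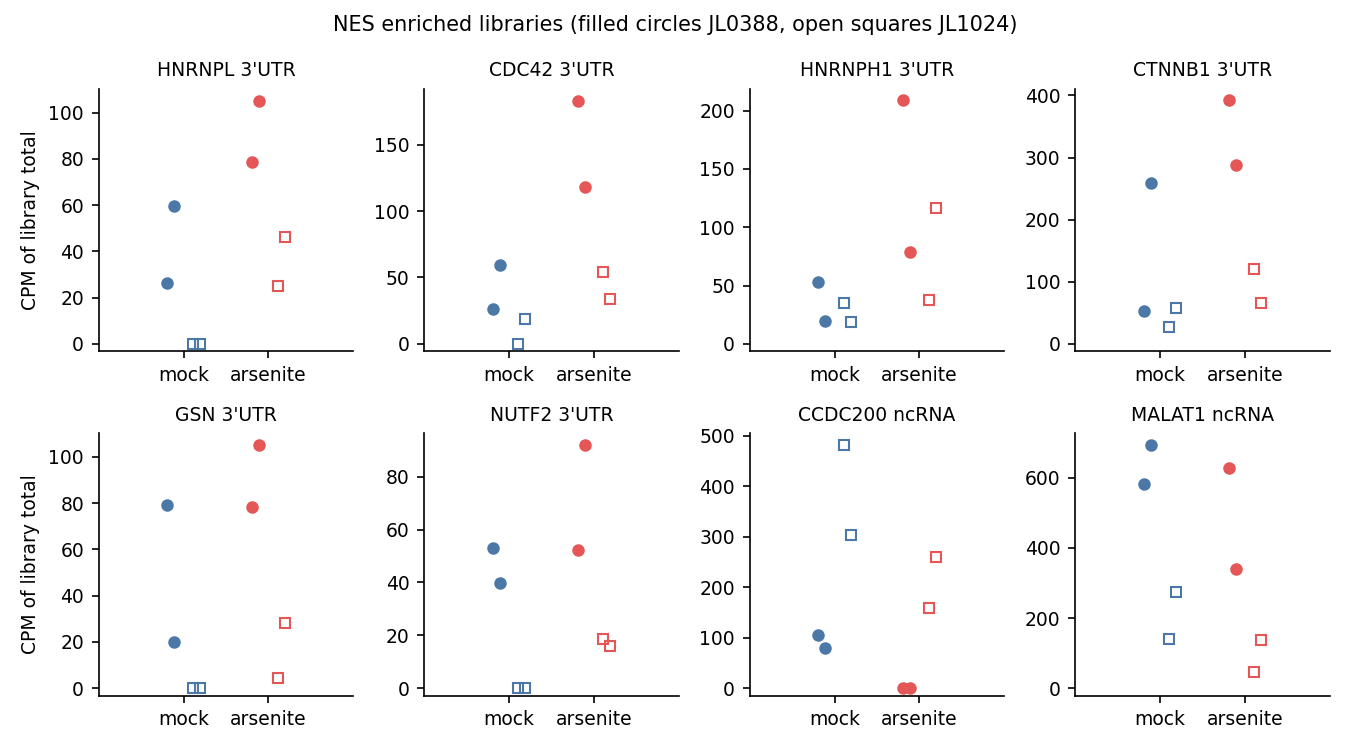
Points are the NES enriched libraries, with CPM of the library total on a linear axis of its own scale in each panel, filled circles for JL0388 and open squares for JL1024. In the first 4 panels arsenite points lie above the mock points of the same set, GSN and NUTF2 had no tag in either JL1024 mock library, and CCDC200 had none in arsenite libraries 1 and 2.

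The 8 units that were lower in both sets held few tags, and 5 of them were introns. The exception in depth was CCDC200, a non-coding RNA unit on chromosome 17, with 106, 79.5, 481 and 303 CPM in mock libraries 1 to 4 and 0, 0, 159 and 260 CPM in the arsenite libraries. Its mock values were lower in JL0388 than in JL1024, and no tag was seen in arsenite libraries 1 and 2, where 4 and 4 tags were seen in mock. The log2 difference was -3.13 ± 0.83 (SE), against 0.11 in the fraction (limma adjusted p = 0.747). The size of the NES value rests on the 2 libraries at 0: the group means were 242 and 105 CPM, and edgeR gave a log2 difference of -0.23. It was the single unit called when the filter on low values was dropped.

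Of the 5 intron units, 4 moved oppositely in the fraction. MGST1, which encodes a microsomal glutathione transferase, had 106, 59.6, 26.2 and 19.0 CPM in its introns in mock and 52.3, 26.2, 4.14 and 3.54 CPM in arsenite libraries, a log2 difference of -1.53 ± 0.66 (SE), or -0.85 with edgeR. These rest on 12 mock and 8 arsenite tags. GPC6, which encodes a heparan sulfate proteoglycan of the cell surface, had 132, 159, 61.2 and 47.4 CPM in mock and 131, 105, 12.4 and 21.2 CPM in arsenite libraries, from 25 and 31 tags. Its JL0388 values in arsenite library 1 and mock library 1 were nearly equal. In the fraction the intron units of MGST1 (0.53), GPC6 (0.52), PIAS1 (0.63), the gene of a SUMO ligase, and PLEKHA5 (0.67) rose on the log2 scale. SRRM1, which encodes a splicing coactivator, was the 3'UTR unit among the 8. It had 79.3, 59.6, 26.2 and 28.4 CPM in mock and 0, 26.2, 12.4 and 8.85 CPM in arsenite libraries, a log2 difference of -2.17 ± 0.86 (SE) that was -0.40 with edgeR, and it also fell in the fraction, by 1.69. LINC02484 and the SLCO5A1 intron, the other units, had log2 differences of -1.85 and -1.50, which turned to 0.14 and 0.22 under edgeR's TMM.

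Among the units with the highest mean values the treatments mostly overlapped. MALAT1, a nuclear-retained long non-coding RNA, had 582, 695, 140 and 275 CPM in mock and 627, 341, 45.6 and 136 CPM in arsenite libraries. It overlapped between treatments in JL0388 and was lower with arsenite in JL1024, with a log2 difference of -0.87 ± 0.55 (SE) that turned to 0.14 under edgeR's TMM. The ACTB 3'UTR, the β-actin mRNA and a known HuR target, had 238, 536, 96.2 and 209 CPM in mock and 654, 354, 170 and 197 CPM in arsenite libraries. The treatments overlapped in both sets, and the log2 difference was 0.39 ± 0.53 (SE), or -0.042 with values centred on the median unit, while the unit fell by 1.20 in the fraction (limma adjusted p = 8.7e-05). The SPTBN1 3'UTR, of a spectrin of the membrane skeleton, had 264, 397, 26.2 and 37.9 CPM in mock and 471, 197, 12.4 and 31.9 CPM in arsenite libraries. Its NES difference was smaller than its error (-0.34 ± 0.58, SE) and turned to 0.53 under edgeR's TMM, against a fall of 2.59 in the fraction (limma adjusted p = 6.0e-08). The 4 SNORD3 copies, which encode U3 snoRNA, were at 0 to 78.4 CPM in JL0388 and 133 to 516 CPM in JL1024, with both treatments in each range. They are near-identical, and their separate counts are uncertain.

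Genes of the stress response and of translation were read from 14 lists, and 0 units of any list passed in NES (0% of all units). In the list of stress granule proteins 11 of 15 3'UTR units were higher with arsenite, with a median log2 difference of 0.64, against 68.7% and 0.57 over all 3'UTR units. As a share of the 3'UTR tags the list held 2.13% and 1.96% in mock and 2.03% and 2.41% in arsenite libraries of JL0388, which overlap. In JL1024 it held 2.46% and 1.84% in mock and 1.16% and 1.31% in arsenite libraries, lower with arsenite without overlap. In the fraction 12 of 29 3'UTR units of that list fell and 0 rose. Of all 6685 3'UTR units tested there 18.6% fell and 0.94% rose, and the fraction's counts for each list, all of 3'UTR units, are to be read against these shares. G3BP1, the stress granule scaffold, had 3'UTR values of 79.3, 119, 8.74 and 0 CPM in mock and 157, 91.8, 4.14 and 1.77 CPM in arsenite libraries, with overlap in both sets. LARP1, which binds mRNAs of the translation machinery, had 26.4, 119, 0 and 0 CPM in mock and 105, 157, 14.5 and 14.2 CPM in arsenite libraries in its 3'UTR. The JL0388 values overlapped, and both JL1024 mock libraries were at 0. Its log2 difference was 2.00 ± 0.74 (SE), against -0.97 in the fraction.

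All 5 tested 3'UTR units of translation factors were higher with arsenite, with a median of 1.26 against 0.57 over all 3'UTR units, although the EIF5A unit had a lower mean CPM with arsenite (14.7 in mock, 12.5 in arsenite). The list's share of the 3'UTR tags overlapped between treatments in both sets. In the fraction, 7 of 24 fell and 1 rose, where 18.6% of all 3'UTR units fell. EIF4B, an activator of the initiation helicase, had 1 tag in the 4 mock libraries and 2, 2, 7 and 5 tags in the arsenite libraries, without overlap in either set. EIF2S3, which encodes the γ subunit of eIF2, had 52.9, 99.3, 0 and 9.48 CPM in mock and 131, 39.4, 53.8 and 54.9 CPM in arsenite libraries in its 3'UTR. Its treatments overlapped in JL0388 and were apart in JL1024. Among splicing factors 11 of 15 3'UTR units were higher, near the 68.7% of all, with a median of 0.32 that was below their 0.57. The list's share of the 3'UTR tags overlapped in JL0388 (1.74% and 2.55% in mock, 1.98% and 2.41% in arsenite libraries) and was higher with arsenite in JL1024 (2.46% and 1.41%, against 3.06% and 4.37%). Of its 3'UTR units 13 of 27 fell in the fraction with 0 rising, against the same 18.6%.

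The remaining lists had few testable 3'UTR units. Of known HuR target mRNAs 3 of 4 were higher (median 0.69). As a share of 3'UTR tags that list overlapped in JL0388 and was higher with arsenite in JL1024 (3.12% and 3.39% in mock, 4.55% and 3.63% in arsenite libraries). A single ACTB peak held 11 of the list's 14 3'UTR tags in mock library 3 and 20 of 24 in mock library 4. That peak held 73 of 98 in arsenite library 3 and 104 of 122 in arsenite library 4. These JL1024 shares therefore describe mostly ACTB. The ELAVL1 3'UTR, the mRNA of HuR itself, had 0, 39.7, 0 and 0 CPM in mock and 78.4, 39.4, 0 and 3.54 CPM in arsenite libraries. Of AU-rich immediate early and decay-factor genes 3 of 4 were higher (median 1.43), and in the fraction 3 of 23 rose and 1 fell, where 0.94% of all 3'UTR units rose. As a share of the 3'UTR tags this list overlapped between treatments in both sets. Of the 4 units the exception was ZFP36L2, an mRNA decay factor, with 52.9, 59.6, 17.5 and 9.48 CPM in mock and 26.1, 26.2, 4.14 and 7.08 CPM in arsenite libraries. It was lower without overlap in both sets, as were 1.11% of all 3'UTR units. These values rest on 2, 3, 2 and 1 mock and 1, 2, 2 and 4 arsenite tags. Its log2 difference was -1.01 with limma and -0.17 with edgeR. The integrated stress response list had 2 testable 3'UTR units, of which 1 was higher. That was SLC7A5, which encodes an amino acid transporter, with 0 tags in each mock and 1 tag in each arsenite library. A unit without mock tags passes the filter only if every arsenite library has a tag, so the filter fixed its direction. The heat shock and the oxidative stress lists had 2 each, of which 0 were higher (medians -0.66 and -0.75). The 2 oxidative stress units, TXNRD1 and GCLM, turned positive under edgeR's TMM (0.59 and 0.03), and TXNRD1 had a mean of 16.1 CPM in mock and 18.1 CPM in arsenite libraries. The heat shock list held 0.58% and 0.59% of the 3'UTR tags in mock and 0.51% and 0.36% in arsenite libraries of JL0388. In JL1024 it held 1.56% and 1.41% against 0.65% and 0.51%, so both sets were lower with arsenite without overlap. These shares rest on 6, 10, 7 and 10 tags in mock and 11, 10, 14 and 17 tags in arsenite libraries 1 to 4. The CANX 3'UTR alone held 2, 4, 6 and 8 of the mock and 2, 6, 4 and 7 of the arsenite tags, most of those in JL1024 mock. The heat shock units included CANX, the endoplasmic reticulum chaperone calnexin, at 52.9, 79.5, 52.5 and 75.8 CPM in mock and 52.3, 78.7, 8.28 and 12.4 CPM in arsenite libraries. CANX was level in JL0388 and lower with arsenite in JL1024, and in the fraction it fell by 1.71 (limma adjusted p = 1.4e-06). Of actin cytoskeleton genes 6 of 9 were higher (median 0.39), and their share of 3'UTR tags was lower with arsenite in JL0388 (2.22% and 2.31% from 23 and 39 tags, against 1.98% and 2.05% from 43 and 57 tags) and overlapped in JL1024. Of secreted hepatocyte proteins 4 of 7 were (median 0.50), and 9 of 15 fell in the fraction and 0 rose, again against 18.6%. Of hepatocyte markers 5 of 6 were (median 1.01), and AFP, the fetal serum protein made by liver tumours, had coding-sequence values of 26.4, 159, 8.74 and 47.4 CPM in mock and 261, 118, 31.1 and 39.0 CPM in arsenite libraries, overlapping in both sets. Cytosolic ribosomal protein genes had no 3'UTR unit that could be tested, and 5 of their 11 tested units, mostly snoRNAs inside the host genes, were higher. Of 11 units of nuclear-retained and snoRNA-host long non-coding RNAs 7 were higher (median 0.47 over units). The list's summed values were 846, 953, 1565 and 787 CPM in mock and 1150, 722, 905 and 487 CPM in arsenite libraries, overlapping in both sets. Shares of the lists were not tested, and with so few libraries per treatment and set, values can lie apart by chance. The lists were chosen with earlier results of these data known, and HuR tags follow both HuR binding and RNA abundance, which cannot be told apart here.

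In the cytoplasmic fraction 3047 of 22884 units passed (13.3%), 1533 higher (6.70%) and 1514 lower (6.62%) with arsenite. The count and its balance depend on single libraries: 480 passed without arsenite library 2, 80 higher and 400 lower, and 791 without arsenite library 3, 179 higher and 612 lower. Without arsenite library 1 it was 326 higher and 647 lower, without mock library 2 it was 314 and 576, and without mock library 3 it was 689 and 869. The 3'UTR made up most of the falls, with 1245 falling and 63 rising among 6685 units, and introns most of the rises, with 1089 rising and 85 falling among 8068. Of 1539 units tested in both systems, 648 (42.1%, 95% Wilson interval 39.7% to 44.6%, which treats units as independent) had the same direction. The share was 36.0% for 3'UTR units (228 of 633) and 45.2% for intron units (299 of 662). In 389 of the 633 3'UTR units the NES difference was above 0 and the fraction's below. Over all classes this held for 487 of 1539 units (31.6%), which include those 389.

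The units called in the fraction were then read in the NES libraries. These libraries played no part in the calls, but a unit could be read only if it passed the NES filter. That left 364 of the 1245 falling 3'UTR units and 355 of the 1089 rising intron units. The units that could be read went much as all units of their class did. Of 364 3'UTR units lower in the fraction and tested in NES, 243 (66.8%) were higher with arsenite in NES, close to the 68.7% of all 3'UTR units. Their median was 0.52 in NES and -1.13 in the fraction. Of 355 intron units higher in the fraction, 208 (58.6%) were lower in NES, against 53.3% of all intron units, with medians of -0.17 and 0.72. Under edgeR's TMM these NES medians were 0.83 and 0.40, so the sign of the intron median depends on the scaling.

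**Figure D4:**
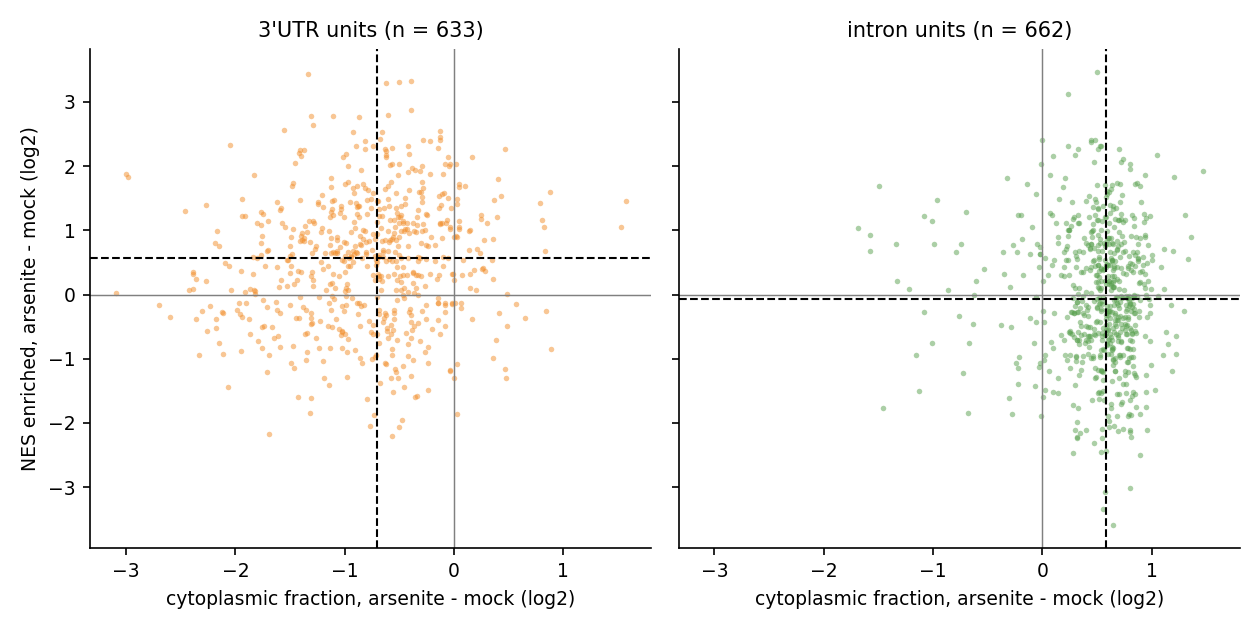
Each point is a unit tested in both systems, with its log2 difference between arsenite and mock in the cytoplasmic fraction (x) and in the NES enriched libraries (y), and dashed lines mark the medians. The 3'UTR units centre at -0.71 and 0.57 and the intron units at 0.58 and -0.07, and the NES values spread more widely.

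The units called in the fraction were also followed as a share of the NES tags of their class. Units lower in the fraction held 50.9% to 54.5% of the 3'UTR tags of the NES mock libraries and 47.7% to 54.3% of those of the arsenite libraries. The means were 53.1% ± 1.56 and 50.9% ± 2.98 (SD, n = 4 each), with an exact permutation p of 0.229, and the sets went in opposite directions (-5.62 points in JL0388, 1.14 in JL1024). Units higher in the fraction held 44.5% ± 2.38 of the intron tags in mock and 39.8% ± 4.38 in arsenite libraries (SD, n = 4 each). That difference of -4.72 points was without overlap in both sets (exact permutation p = 0.143, and 0.0556 within sets).

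Gene by gene, the effects of arsenite in the NES and the fraction libraries differed in 2 of 1539 units (0.13%) with limma, both 3'UTRs that were lower in the fraction. GSN encodes gelsolin, an actin-severing protein. Its 3'UTR had 79.3, 19.9, 0 and 0 CPM in NES mock and 78.4, 105, 4.14 and 28.3 CPM in NES arsenite libraries, overlapping in JL0388. In the fraction it had 703, 772 and 727 CPM in mock and 83.7, 105 and 82.1 CPM in arsenite libraries, a fall of 3.00 on the log2 scale. The effects differed by 4.87 ± 0.88 (SE, limma adjusted p = 0.035), and all of its 33 NES tags lay in chr9:121332738-121332758 on the plus strand.

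NUTF2 encodes nuclear transport factor 2, which carries Ran into the nucleus. Its 3'UTR had 52.9, 39.7, 0 and 0 CPM in NES mock and 52.3, 91.8, 18.6 and 15.9 CPM in NES arsenite libraries, with overlap in JL0388. In the fraction the mock libraries had 603, 783 and 878 CPM and the arsenite libraries 79.4, 123 and 81.4 CPM, a fall of 2.98 on the log2 scale. The effects differed by 4.81 ± 0.81 (SE, limma adjusted p = 0.031), and 30 of 31 NES tags lay in chr16:67871181-67871201 on the plus strand. Both NES differences rest on JL1024 mock libraries without a tag, and after thinning the NES difference of NUTF2 was 0. edgeR with TMM scaling called 182 units (11.8%), 178 of them higher in NES relative to the fraction. Its median difference over all units was 0.82. limma called 0 with a replicate block or a pseudocount 4 times smaller. Scaled to tags in peaks, it called 13 higher and 4 lower.

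Units also tested in NES with the largest falls in the fraction had mixed values in NES. The PDIA4 3'UTR, of an endoplasmic reticulum disulfide isomerase, fell by 3.09 in the fraction (limma adjusted p = 4.7e-08). In NES it had 79.3, 59.6, 0 and 0 CPM in mock and 26.1, 39.4, 8.28 and 0 CPM in arsenite libraries, lower in JL0388 and not in JL1024. The SLC12A2 3'UTR, of an ion cotransporter, fell by 2.46, and in NES its libraries ranged from 0 to 119 CPM in mock and from 3.54 to 105 CPM in arsenite. Those of ADAM10 (-2.42), CRIM1 (-2.39) and STT3A (-2.70 in the fraction) had NES differences smaller than their standard errors. Of the largest rises in the fraction among units also tested in NES, the 3'UTR of JUND, an AP-1 transcription factor, rose by 1.53 there (limma adjusted p = 4.1e-05) and had 0, 39.7, 0 and 28.4 CPM in NES mock and 26.1, 13.1, 6.21 and 31.9 CPM in NES arsenite libraries, overlapping in both sets. The HMGCS1 intron, of a cholesterol synthesis gene, rose by 1.47, and in NES it had 1 tag in the mock and 7 in the arsenite libraries. Several transcripts that moved far in the fraction had few or no tags in the NES libraries. The POLR2A 5'UTR, of the large RNA polymerase II subunit, rose by 2.82 in the fraction and had 0 tags in all 8 NES libraries. The TMEM123 3'UTR (-2.07) had 2 mock and 2 arsenite tags, the WEE1 intron (1.50) 1 and 2, and the TFPI 3'UTR (-2.12) 4 and 3, which leaves their direction in NES undetermined.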

How the data were processed

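The authors deposited 1 table of signal per peak and library. Each value is a whole number of CLIP tags divided by a library total, as the values show: 100% of values are whole multiples of the smallest within 0.01 tags. Submitters' processing notes name Bowtie2, SAMtools, bedtools, HOMER and GRCh38.p14. The peak caller, duplicate removal and annotation source are not given in the sources used here. Of 395471 lines, 8257 repeats were dropped, leaving 387214 peaks of 20 nt, 84358 without a gene name. Tags were summed per gene name and annotation class. limma 3.58.1 (R 4.3.3) tested log2(value + a pseudocount of 2.28 CPM), with library set as covariate, in units non-zero in at least 4 of 8 NES or 3 of 6 fraction libraries, with Benjamini-Hochberg adjustment at 0.05. On this scale a library at 0 weighs heavily where 1 tag is worth many times the pseudocount, so differences of low units can be over- or understated. edgeR 4.0.16 and DESeq2 1.42.0 on recovered tags were alternatives. Exact permutation tests, two-sided, compared shares between treatments (scipy 1.17.1). The code was tested on simulated data.

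Units were named by rule: non-overlapping units with at least 20 tags, the 10 highest by mean value, up to 4 most tagged per list, the 10 largest called rises and falls of the fraction among units also tested in NES, and 4 genes from earlier results. PACS1 was chosen after its values were seen. Members, lists and rules were chosen with earlier results of these data known.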

Additional observations from a re-analysis of the deposited data

Results flagged for a closer look

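In the CTNNB1 3'UTR, NES mock library 2 had 258 CPM and stood far from the other 3 mock libraries. In the SLCO5A1 intron, NES arsenite library 1 had 0 CPM, apart from the other arsenite libraries at 13.1 to 14.5 CPM. Such a gap was looked for in 66 groups of values, and chance alone marks about 1 in 20 groups.

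The arsenite effect differed between the NES and the cytoplasmic fraction libraries, as tested in limma, for the log2 odds of the 3'UTR (1.48), coding sequence (0.92), intron (-1.32) and snoRNA (1.70) shares. In the planned limma test of units, the effect also differed for the 3'UTR units of GSN (4.87, log2) and NUTF2 (4.81, log2). Cell line, labelling, separation method and library set differ together between both systems, and their parts cannot be told apart.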

How the results depend on the processing

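The 3'UTR share among 3'UTR and intron tags was above mock under every alternative run, with a difference of 6.25 to 12.8 points when 1 library was left out. Of all tags in peaks, the 3'UTR difference turned to -0.72 points with arsenite libraries 1 and 2 counted once and ranged from -1.11 to 10.1 without 1 library, negative without mock library 3 or arsenite library 1 or 2. Counting that pair once turned the ncRNA (0.99), snoRNA (0.25) and in-peak (-0.23) differences, whose ranges without 1 library were -5.79 to 3.42, -1.70 to 1.16 and -0.90 to 2.03. JL0388 alone gave TE -0.21 and snoRNA 0.069 points, and JL1024 alone an in-peak difference of -0.34 and 1.14 points for 3'UTR tags of units lower in the fraction. NES calls numbered 1 of 10023 units without a filter, 1 of 532 after thinning (PACS1) and 544 of 2457 with JL1024 alone. Of the 544, 543 were higher, where arsenite libraries are deeper, and the cause was not tested. Calls of the effect difference numbered 182 (edgeR), 23 and 0 (pseudocount 4 times larger and smaller), 17 (scaled to tags in peaks), 0 (replicate block), 574 (JL0388) and 369 (JL1024). With JL1024 alone the class differences were 1.31 (3'UTR), -1.41 (intron), 1.49 (snoRNA) and 0.59 (coding sequence), none past the threshold. Leaving out 1 library gave 0.70 to 1.14 for coding sequence and 1.47 to 2.01 for snoRNA. Units with the same direction made up 45.5% under edgeR and 44.9% with JL0388. Fraction calls ranged from 480 (without arsenite library 2) to 2977 without 1 library, and were 890, 1558, 973 and 791 without mock library 2 or 3 or arsenite library 1 or 3. In the fit shared with the fraction, the NES log2 odds of the 3'UTR share passed with JL0388 as the only NES set (0.48). They ranged from 0.15 to 0.54 without 1 library. Those of the intron passed with JL0388 as the only NES set (-0.39) and ranged from -0.63 to -0.31. Under edgeR's TMM, which moves the median unit up, LINC02484 (0.14), SLCO5A1 (0.22), MALAT1 (0.14) and SPTBN1 (0.53, and 0.10 under DESeq2) turned, as did TXNRD1 (0.59) and GCLM (0.03). ACTB turned to -0.042 when centred on the median unit, and NUTF2 was at 0 after thinning.

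Same-numbered libraries did not deviate together (correlations of 0.036 and 0.090 in NES). The replicate block gave 0 NES calls with 93 at an unadjusted p under 0.05, against 0 and 105 without it, 3064 fraction calls, and a coding-sequence difference of 0.92 (adjusted p = 0.066). No NES library held under 2000 tags in peaks, so leaving out such libraries changed nothing.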
